A study of Mus musculus with 6 samples.

Results

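The genes described here carry the calcium signal of the T cell receptor from the endoplasmic reticulum to the nucleus. They are Itpr1 (a calcium release channel), Stim1, Stim2 and Orai1 (calcium entry), Ppp3ca, Ppp3cb and Ppp3r1 (calcineurin), and Nfatc1, Nfatc2 and Nfatc3 (transcription factors). The 10 genes were chosen by name for their place in the pathway, with earlier results of these data known. Each was found among the 16448 genes of the authors' deposited table and the 43430 genes counted. All 10 passed the filter on low counts, which kept 13039 genes for testing.

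RNA was sequenced from CD4+CD8+ double-positive (DP) thymocytes sorted by flow cytometry from the thymus of C57BL/6 mice. The KO group holds 3 libraries from mice that are Mettl14 fl/fl and carry CD4-Cre, a transgene in which the Cd4 promoter drives the recombinase, so that deletion starts only as that promoter becomes active in the thymus. The WT group holds 3 libraries from littermate controls, and the labels do not say whether these carry floxed alleles or Cre. The labels give no age or sex, and do not say whether animals were pooled or whether libraries stand for separate animals. A p-value here therefore measures only the spread from library to library, part of which may be technical. Mettl14 is the partner of Mettl3 in the enzyme that writes N6-methyladenosine on RNA, and the study asks what its loss changes in developing T cells.

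When a T cell receptor is engaged, phospholipase C makes the messenger IP3, which opens IP3 receptors such as Itpr1 and empties the calcium store of the endoplasmic reticulum. The STIM proteins sense the empty store and open ORAI channels in the plasma membrane, and the calcium that enters binds calmodulin and switches on the phosphatase calcineurin. Calcineurin strips phosphates from NFAT proteins, which then move into the nucleus, while kinases that rephosphorylate NFAT send it out again. In DP thymocytes this route is known for its part in positive selection.

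Promoter sequences are shown for 1 gene at each of 3 steps (entry, phosphatase, transcription factor), because NFAT proteins bind the core GGAAA and are known to act on some genes of their own pathway. Each is the 250 bases before an annotated start, 5′ to 3′ along the gene's strand, from RefSeq on GRCm38. Capitals mark every GGAAA, or TTTCC where the core lies on the opposite strand; this core contains GGAA, which ETS factors also bind.
Stim1, plus strand, chr7:102267569-102267818: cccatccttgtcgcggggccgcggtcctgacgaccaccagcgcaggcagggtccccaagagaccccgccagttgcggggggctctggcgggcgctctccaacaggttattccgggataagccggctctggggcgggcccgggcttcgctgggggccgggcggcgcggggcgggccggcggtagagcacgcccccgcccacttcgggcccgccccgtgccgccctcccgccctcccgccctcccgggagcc
Ppp3cb, minus strand, chr14:20546574-20546823: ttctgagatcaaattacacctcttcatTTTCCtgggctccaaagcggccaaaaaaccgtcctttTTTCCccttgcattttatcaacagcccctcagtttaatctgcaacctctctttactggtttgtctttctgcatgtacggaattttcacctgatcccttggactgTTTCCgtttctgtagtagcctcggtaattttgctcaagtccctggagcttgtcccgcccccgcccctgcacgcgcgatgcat
Nfatc2, minus strand, chr2:168601658-168601907: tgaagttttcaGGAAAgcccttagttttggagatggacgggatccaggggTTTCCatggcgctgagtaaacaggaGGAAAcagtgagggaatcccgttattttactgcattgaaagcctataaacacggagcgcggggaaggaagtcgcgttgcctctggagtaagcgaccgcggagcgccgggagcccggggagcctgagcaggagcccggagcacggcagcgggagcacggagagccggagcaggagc
The Stim1 window held no copy of the core and had a GC content of 78.4%, and 13 of its bases lie in an exon of the GENCODE M21 annotation. The Ppp3cb window held 3 copies, at a GC content of 48.4%, and the Nfatc2 window printed here held 3, at 59.6%; a second Nfatc2 window, at another start, held 1. Among 32851 RefSeq windows of the same length, 55.6% held at least 1 copy and 6.39% held 3 or more, and the median GC content was 52.4%. The promoter table held 9 windows for 7 of the 10 genes, and 4 of the 9 had a copy; the windows printed for Ppp3cb and Nfatc2 were the only ones with more than 1. A match is a description of the letters and not a measured binding site.

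The sequenced cells carried the markers of their label. The 9 DP markers (Cd4, Cd8a, Rag1, Dntt and others) summed to 15177 to 16831 CPM in the WT libraries and 15841 to 16667 CPM in the KO libraries. Ptcra, a small part of this sum, was higher in every KO library (37.1 to 42.0 CPM in WT, 47.0 to 54.1 in KO). The other DP markers overlapped between groups, and a difference in stage was not tested. CPM are the counts of a gene for every 1000000 counts of its library, here after TMM scaling, a correction for library composition. Gene counts ranged from 29500254 to 33377056 per library. Mettl14 itself was at 52.1, 58.8 and 55.8 CPM in WT and 42.2, 40.3 and 36.4 CPM in KO, lower in every KO library (log2 fold change -0.49, adjusted p = 0.289 with edgeR and 0.0020 with DESeq2). The labels do not say which exons are floxed, and reads from the rest of the transcript are part of this level. WT replicate 1 stood apart from the other 5 libraries: a list of 8 handling and immediate early genes summed to 678 CPM there and to 157 to 196 CPM elsewhere. The 6 NK and gamma-delta cell markers summed to 2.17 to 2.69 CPM in WT and 5.50 to 7.07 CPM in KO. Most of the KO sum was Tcrg-C1 (0.649 to 1.15 CPM in WT, 2.10 to 2.57 in KO) and Tcrg-C2 (0.673 to 1.02 and 2.24 to 2.76). Fcer1g (0.272 to 0.322 and 0.398 to 0.711) was also higher in every KO library. Nkg7 overlapped between groups (0.239 to 0.394 and 0.265 to 1.18), and Klrb1c and Ncr1 were at or near 0 in all libraries. The part of NK and gamma-delta cells in the results was not tested. The summed B cell, myeloid, stromal and mature T cell markers overlapped between groups, but the B cell sum was mostly Ighm and the stromal sum mostly Pecam1, genes high in every library. Among the other markers of these lists, Cd79a (0.307 to 0.454 CPM in WT, 0.597 to 1.998 in KO) and H2-Ab1 (4.62 to 5.51 and 6.63 to 8.12) were higher in every KO library. So were Epcam (2.39 to 3.54 and 3.68 to 5.18) and Cst3 (51.0 to 55.6 and 55.9 to 60.1), the most abundant myeloid marker listed. All KO libraries lay above all WT libraries for 6.59% of all tested genes. The remaining markers of these lists did not separate the groups in either direction. Itgam, for example, lay below its WT range in KO replicates 1 and 3 and above it in KO replicate 2. The part of B, myeloid, stromal and mature T cells in the results was not tested.

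None of the 10 genes passed the test between KO and WT cells, and their levels differed by 16.1% or less. Members with an adjusted p under 0.05 numbered 0 of 10 with edgeR, and 0 with DESeq2 or limma-voom, beside 0.0383% of all tested genes called by edgeR. At an unadjusted p under 0.05, 1 of 10 was higher in KO, Nfatc1, beside 3.41% of all tested genes, and 0 of 10 were lower, beside 3.31%. The log2 fold change, KO minus WT, was above 0 for 9 of the 10 genes, beside 48.9% of all tested genes, with a median of 0.079 against -0.0040 over all genes, and 4 of the 10 (Orai1, Itpr1, Ppp3ca and Nfatc2) changed sign when 1 library or another was left out. In 2 of the 10, Nfatc1 and Nfatc3, all 3 KO libraries lay above all 3 WT libraries, beside 6.59% of tested genes, and 0 of 10 lay below, beside 5.97%. In bulk RNA, fewer cells of a type and less RNA per cell cannot be told apart.

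**Figure D1:**
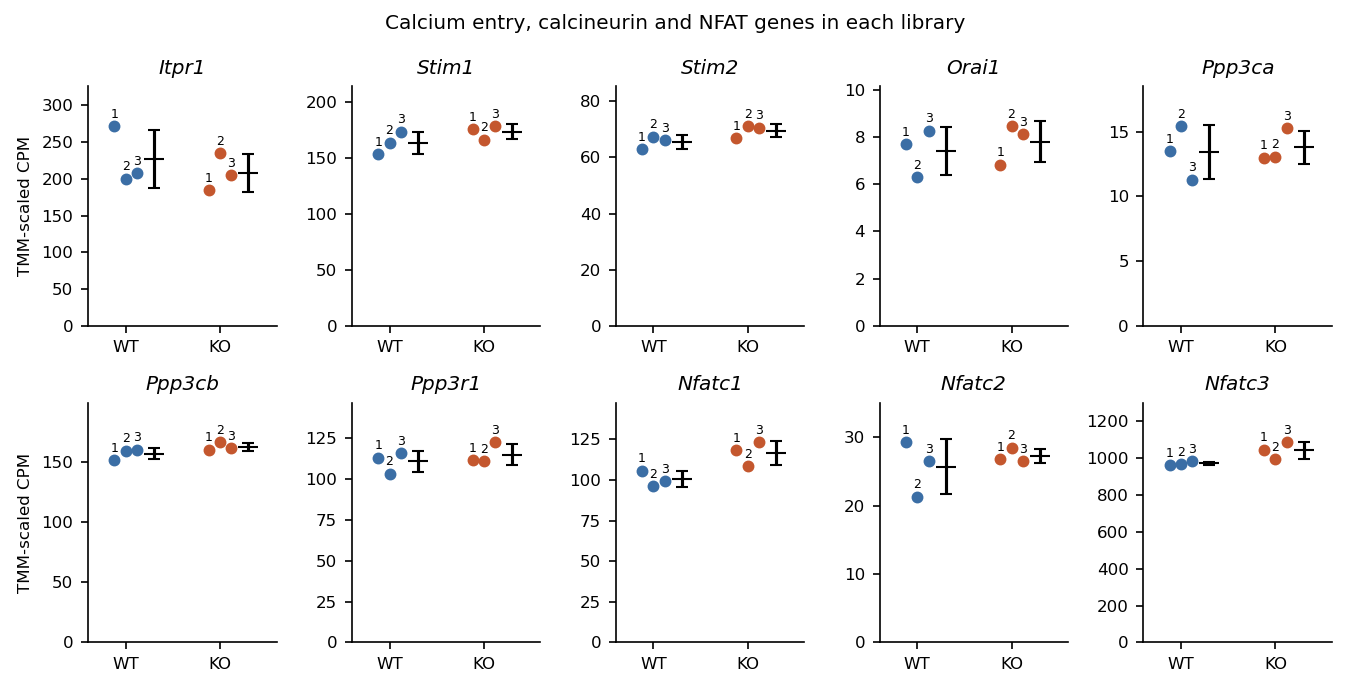
TMM-scaled CPM (vertical axes, from 0) of the 10 genes in each library, with WT in blue, KO in orange and replicate numbers above the points; bars are the mean and SD (n = 3). The groups separate only for Nfatc1 (WT 96.2 to 106 CPM, KO 109 to 123 CPM) and Nfatc3 (WT 964 to 983 CPM, KO 996 to 1086 CPM).

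Itpr1 encodes an IP3 receptor, the channel through which the store empties. It is annotated on chromosome 6 (108213118 to 108551109, plus strand, mm10 as are all positions in the deposited table). Its level was 272, 200 and 207 CPM in WT and 184, 235 and 204 CPM in KO. WT replicate 1 was the highest library and KO replicate 1 the lowest, and the other 4 libraries of both groups were interleaved. The means were 226 ± 39.4 and 208 ± 25.5 CPM (SD, n = 3), and Itpr1 was the 1 gene of the 10 with a negative log2 fold change, -0.12 (SE 0.14, 95% interval -0.44 to 0.19, edgeR adjusted p = 0.872). With WT replicate 1 left out, the library with high immediate early genes, Itpr1 had a log2 fold change of 0.029.

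Stim1 and Stim2 encode the sensors of the store. Stim1 (chromosome 7, 102267824 to 102436848, plus strand) was at 153, 164 and 173 CPM in WT and 176, 166 and 179 CPM in KO. KO replicate 2 lay inside the WT range and the other 2 KO libraries lay above it. For Stim1 the log2 fold change came to 0.088 (SE 0.070, 95% interval -0.074 to 0.25, edgeR adjusted p = 0.827). Its mean was 163 ± 10.1 CPM over the WT libraries and 174 ± 6.41 CPM over the KO libraries (SD, n = 3). Stim2 (chromosome 5, 53998417 to 54121057, plus strand), the sensor known to respond to smaller losses of stored calcium, was at 62.9, 67.4 and 66.2 CPM in WT and 66.9, 71.2 and 70.6 CPM in KO. Only KO replicate 1 lay within its WT range. Stim2 had a log2 fold change of 0.087 (SE 0.067, 95% interval -0.069 to 0.24, edgeR adjusted p = 0.821), nearly that of Stim1, and both intervals include no change and set the upper bound of a rise at 1.19-fold for Stim1 and 1.18-fold for Stim2.

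Per kilobase of gene, Stim1 was the higher of the pair in every library. The ratio of Stim1 to Stim2 was 8.31 ± 0.36 in WT and 8.32 ± 0.50 in KO (SD, n = 3) with the deposited gene lengths. It was 2.82 ± 0.12 and 2.83 ± 0.17 with the length of the longest protein-coding transcript. Deposited lengths of some genes are several times that of their longest coding transcript (Nfatc2, 34495 against 6828 bases), so an order of genes is stated only where both lengths give it. Within a gene this choice does not touch the comparison of KO with WT.

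Orai1 encodes the pore of the store-operated channel and lies on chromosome 5 (123015074 to 123030450, plus strand). It was at 7.70, 6.30 and 8.27 CPM in WT and 6.83, 8.47 and 8.12 CPM in KO, so that the groups overlapped. Its log2 fold change came to 0.074 (SE 0.17, 95% interval -0.31 to 0.46, edgeR adjusted p = 0.945), which leaves anything from 0.805-fold to 1.38-fold. Orai1 rested on 206 to 263 counts per library, a counting error of about 6.48%, against a coefficient of variation of 13.7% among the WT libraries. Of the 10 genes it had the fewest counts. The start of Orai1 overlaps the opposite-strand gene Kdm2b by 7 bases that are in no shared exon.

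The ORAI transcript of these cells was mainly Orai2, whose product forms a channel related to Orai1. Orai2 made up 94.2% of the per-kilobase level of the 3 ORAI genes in WT with deposited lengths and 87.1% with coding transcript lengths, and 93.9% and 86.4% in KO. Orai1 held 3.71% and 8.32% in WT, and Orai3 2.07% and 4.53%. Orai2 was at 202, 143 and 156 CPM in WT and 174, 181 and 143 CPM in KO. The Orai2 groups overlapped across most of their range (log2 fold change -0.012, SE 0.14, edgeR adjusted p = 0.991), and without WT replicate 1 the value was 0.15. For Orai3 the log2 fold change was 0.12 (SE 0.18).

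IP3 receptors were split more evenly among 3 genes, Itpr1, Itpr2 and Itpr3. With deposited lengths Itpr1 held 39.1%, Itpr2 21.8% and Itpr3 39.1% of the WT total per kilobase. With coding transcript lengths Itpr2 was highest at 44.1%, ahead of Itpr1 at 27.99% and Itpr3 at 27.96%, so their order depends on the length used. Itpr2 was at 378, 425 and 464 CPM in WT and 616, 449 and 504 CPM in KO, with KO replicate 2 inside the WT range (log2 fold change 0.31, SE 0.13, unadjusted p = 0.0419, adjusted p = 0.733 with edgeR). For Itpr3 the log2 fold change was 0.012 (SE 0.090).

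**Figure D2:**
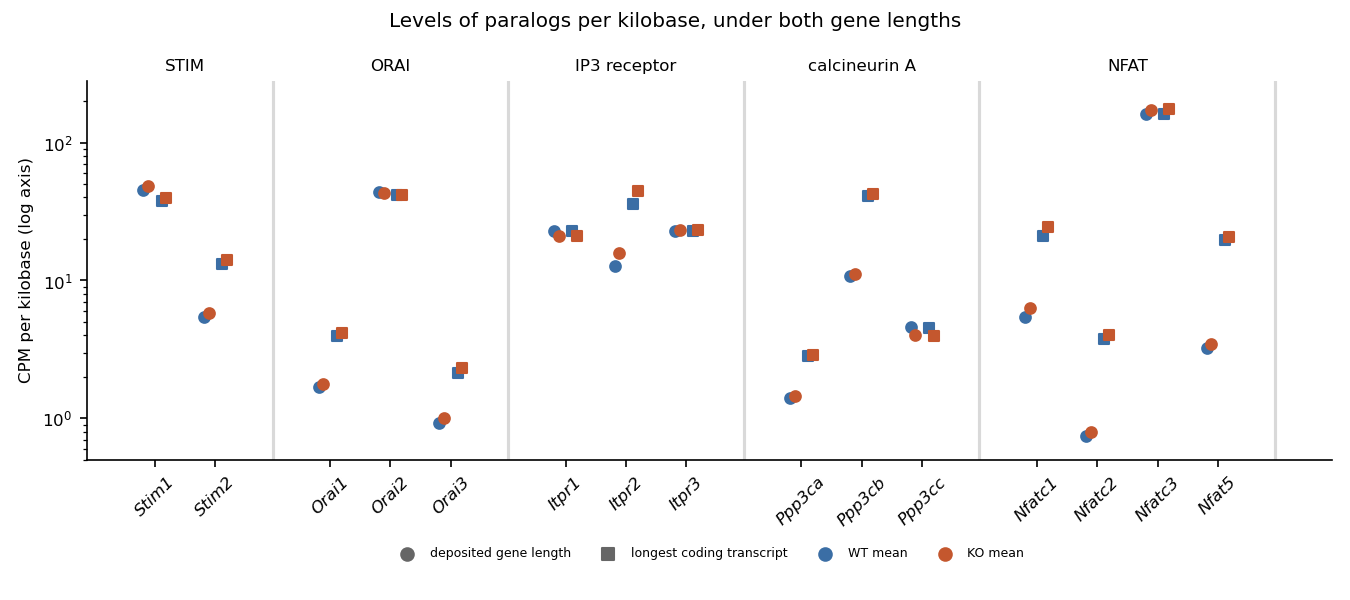
Mean level in CPM per kilobase (log axis) of members and their paralogs in 5 families, WT in blue and KO in orange, with circles for deposited gene lengths and squares for the longest coding transcript. Stim1, Orai2, Ppp3cb and Nfatc3 are the highest of their families under both lengths, while the order of the IP3 receptors depends on the length.

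Calcineurin joins a catalytic A subunit, encoded by Ppp3ca, Ppp3cb or Ppp3cc, to the calcium-binding B subunit encoded by Ppp3r1. Ppp3cb (chromosome 14, 20499364 to 20546573, minus strand), whose promoter is printed above, was at 151, 159 and 160 CPM in WT and 160, 166 and 161 CPM in KO. WT replicate 3 lay a fraction of a CPM above KO replicate 1, so the groups touched, and WT replicate 1 was the lowest library. Ppp3cb had a log2 fold change of 0.050 (SE 0.060, 95% interval -0.088 to 0.19, edgeR adjusted p = 0.882), the tightest interval of the 10 genes. A rise above 1.14-fold or a fall below 0.941-fold lies outside this interval.

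Ppp3ca (chromosome 3, 136670124 to 136937727, plus strand) was at 13.5, 15.4 and 11.3 CPM in WT and 13.0, 13.1 and 15.3 CPM in KO. The KO libraries lay within the WT range throughout. On the log2 scale the fold change was 0.039 (SE 0.15, 95% interval -0.31 to 0.38, edgeR adjusted p = 0.968), the smallest of the 10 in size. Ppp3r1 (chromosome 11, 17159263 to 17200375, plus strand) was at 113, 104 and 116 CPM in WT and 112, 111 and 123 CPM in KO. KO replicate 3 lay above the WT range and the other 2 KO libraries inside it (log2 fold change 0.054, SE 0.075, 95% interval -0.12 to 0.23, edgeR adjusted p = 0.897). Ppp3r1 shares 462 exon bases with Wdr92 on the same strand, and how reads there were assigned is not known; Wdr92 had 35.6 ± 3.06 CPM across the WT libraries and 35.3 ± 1.57 across the KO libraries (SD, n = 3).

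Ppp3cb supplied most of the catalytic subunit transcript. It held 64.4% of the per-kilobase level of the 3 A subunit genes in WT with deposited lengths and 84.8% with coding lengths, and 67.1% and 86.1% in KO. Ppp3cc was next at 27.2% or 9.36% in WT, and Ppp3ca held 8.41% or 5.84%. Per kilobase, Ppp3cb stood 7.75 ± 1.31 times as high as Ppp3ca in WT and 7.73 ± 0.75 times in KO (SD, n = 3) with deposited lengths, and 14.8 and 14.7 times with coding lengths. For Ppp3cc, with 8.89 ± 1.43 CPM over the WT libraries and 7.81 ± 0.54 over the KO libraries (SD, n = 3), KO minus WT was -0.19 on the log2 scale (SE 0.16, adjusted p = 0.840 with edgeR). Ppp3r2, a second B subunit gene, had 0 counts in all 6 libraries.

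Nfatc1 was the gene of the 10 with the largest difference between groups. It encodes an NFAT protein known for its induced short form and lies on chromosome 18 (80606205 to 80713071, minus strand). Its level was 106, 96.2 and 99.4 CPM in WT and 118, 109 and 123 CPM in KO. Every KO library lay above every WT library, with KO replicate 2 and WT replicate 1 the nearest pair. The means were 100.5 ± 4.88 and 117 ± 7.37 CPM (SD, n = 3), 16.1% higher in KO. This gave a log2 fold change of 0.22 (SE 0.075, 95% interval 0.043 to 0.39), the unadjusted p was 0.0207 and the adjusted p over all genes was 0.695 with edgeR, so Nfatc1 did not pass the test. Adjusted p was 0.520 with DESeq2 and 0.669 with limma-voom, and the authors' deposited table gives the log2 fold change as 0.22 and the adjusted p as 0.467. Across the 13 alternative settings the log2 fold change of Nfatc1 ran from 0.18 to 0.27 and its unadjusted p from 0.0096 to 0.0775. That p was under 0.05 in 10 of the 13. It was above 0.05 when WT replicate 2, or KO replicate 1, or KO replicate 3 was left out, and 0 of the 10 members were then under 0.05. Leaving out WT replicate 1 gave Nfatc1 a log2 fold change of 0.25.

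Nfatc2 (chromosome 2, 168476410 to 168601657, minus strand), the NFAT protein known for its role in cytokine genes of mature T cells, was the lowest of the 3. It was at 29.3, 21.3 and 26.6 CPM in WT and 26.8, 28.5 and 26.5 CPM in KO. All 3 KO libraries lay within the WT range, and WT replicate 2 was the lowest library. For Nfatc2 it was 0.085 on the log2 scale, KO minus WT (SE 0.13, 95% interval -0.20 to 0.37, edgeR adjusted p = 0.903). It was 0.19 without WT replicate 1 and -0.033 without WT replicate 2. The coefficient of variation of Nfatc2 was 15.7% in WT and 3.98% in KO, beside a counting error of 3.47%.

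Nfatc3 (chromosome 8, 106059603 to 106130537, plus strand), the NFAT protein known to be prominent in DP thymocytes, had the highest level of the 10 genes. It was at 964, 969 and 983 CPM in WT and 1047, 996 and 1086 CPM in KO. The KO libraries lay above the WT libraries without overlap, by little in KO replicate 2. The means were 972 ± 10.1 and 1043 ± 45.3 CPM (SD, n = 3), 7.27% higher in KO, and the log2 fold change was 0.10 (SE 0.062, 95% interval -0.042 to 0.25, unadjusted p = 0.142, adjusted p = 0.780 with edgeR). The coefficient of variation of Nfatc3 was 1.04% in WT and 4.34% in KO. Per kilobase of deposited length it was at 162 ± 1.69 CPM in WT (SD, n = 3). Over the libraries of both groups together, its mean per kilobase lay above 99.0% of the tested genes.

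Nfatc3 accounted for nearly all of the NFATc transcript per kilobase. Its share of Nfatc1, Nfatc2 and Nfatc3 together was 96.3% in WT and 96.1% in KO with deposited lengths, and 86.8% and 86.0% with coding lengths. Nfatc1 held 3.22% in WT and 3.47% in KO with deposited lengths, and 11.2% in WT with coding lengths. Nfatc2 held 0.44% or 2.01% in WT. With deposited lengths Nfatc3 exceeded Nfatc1 by a factor of 28.2, 31.2 and 30.6 in the WT libraries and of 27.4, 28.4 and 27.3 in the KO libraries, ranges that overlap between WT replicate 1 and KO replicate 2. Nfatc4 had 4 counts in all 6 libraries together. Nfat5, the family member known to respond to osmotic stress without calcineurin, was at 249, 251 and 284 CPM in WT and 274, 309 and 253 CPM in KO (log2 fold change 0.094, SE 0.092, edgeR adjusted p = 0.854).

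The 3′ end of Nfatc3 shares 219 exon bases with Esrp2, an epithelial splicing factor gene on the opposite strand, and whether counting used the strand is not given in the sources used here. Esrp2 had 1040, 520 and 406 counts in WT and 97, 306 and 255 in KO, all KO libraries below all WT libraries. Nfatc3 had 28787 to 35039 counts in the same libraries. How many reads fell in the shared bases is not known, and their part in the Nfatc3 difference was not tested. The log2 fold change of Esrp2 was -1.48 (SE 0.44, unadjusted p = 0.0104, adjusted p = 0.630 with edgeR), opposite in sign to that of Nfatc3.

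**Figure D3:**
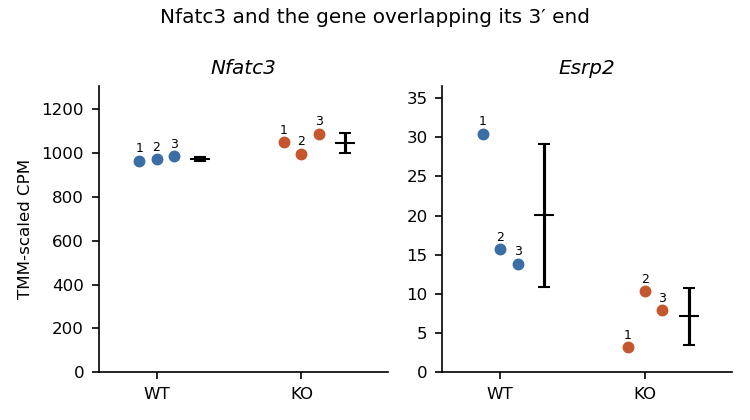
TMM-scaled CPM (vertical axes from 0, on different scales) of Nfatc3 and Esrp2 in the 3 WT (blue) and 3 KO (orange) libraries, with replicate numbers, mean and SD. Nfatc3 lay higher in every KO library (996 to 1086 CPM against 964 to 983), and Esrp2 lower (3.22 to 10.4 CPM against 13.9 to 30.4).

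The members differed among themselves in spread and in level. Orai1, Itpr1, Ppp3ca and Nfatc2 had a coefficient of variation of 13.7% to 17.4% in WT, and Stim1, Stim2, Ppp3cb, Ppp3r1, Nfatc1 and Nfatc3 one of 1.04% to 6.15%. In order of level per kilobase in WT, Nfatc3 was highest and Stim2 lay above Orai1 under both lengths, and Orai1, Ppp3ca and Nfatc2 were the lowest 3 of the 10. With deposited lengths the WT levels of Orai1, Ppp3ca and Nfatc2 were 1.69, 1.41 and 0.75 CPM per kilobase, and with coding lengths 3.96, 2.82 and 3.77, so their order among themselves depends on the length.

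**Figure D4:**
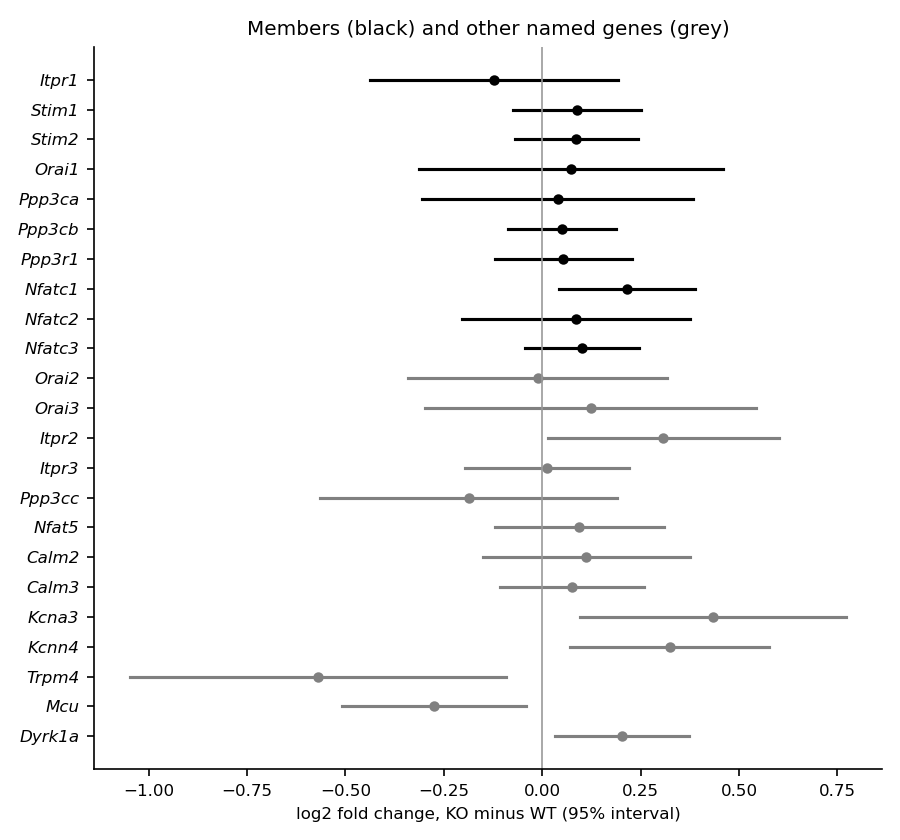
Log2 fold change (horizontal axis, KO minus WT) with its 95% interval from edgeR for the 10 members in black and named paralogs and pathway genes in grey. Of the members, the interval of Nfatc1 alone lies above 0 (0.043 to 0.39), and that of Itpr1 is centred below 0.

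The rest of the pathway was read from 8 lists by role, 72 genes in all, of which 63 were tested. Other pathway genes with an adjusted p under 0.05 numbered 0 of 63 with edgeR, DESeq2 or limma-voom as run here without a block. The authors' deposited table has 1 such gene under 0.05, Pdcd1. At an unadjusted p under 0.05 with edgeR, 4 were higher in KO (Itpr2, Kcna3, Kcnn4 and Dyrk1a) and 2 were lower (Mcu and Trpm4), beside 3.41% and 3.31% of all tested genes. That count of 6 became 10 with WT replicate 3 left out, 2 with WT replicate 2 left out and 0 with KO replicate 1 left out. The log2 fold change was above 0 for 39 of the 63, beside 48.9% of all tested genes, with a median of 0.059. All 3 KO libraries lay above all 3 WT libraries for 6 of the 63 (Sppl3, Kcna3, Kcnn4, Trpv2, Camk2d and Dyrk1a) and below for 2 (Mcu and Trpm4), beside 6.59% and 5.97% of all tested genes.

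Potassium channels hold the membrane voltage at which calcium flows in. Kcna3 and Kcnn4, named for having among the lowest p in their list, had larger log2 fold changes than the members. Neither passed the test. Kcna3 encodes the main voltage-gated potassium channel of T cells. It was at 90.2, 107 and 122 CPM in WT and 172, 125 and 136 CPM in KO, without overlap (log2 fold change 0.43, SE 0.15, unadjusted p = 0.0183, adjusted p = 0.694 with edgeR). Kcnn4, the calcium-activated potassium channel, was at 189, 163 and 198 CPM in WT and 257, 230 and 202 CPM in KO (log2 fold change 0.32, SE 0.11, unadjusted p = 0.0185, adjusted p = 0.694 with edgeR). KO replicate 3 exceeded the highest WT library only narrowly for Kcnn4. Trpm4, a calcium-activated cation channel known to depolarise the membrane, was at 6.67, 5.03 and 5.77 CPM in WT and 3.18, 3.93 and 4.65 CPM in KO. All its KO libraries lay below the WT range (log2 fold change -0.57, SE 0.21, unadjusted p = 0.0251, adjusted p = 0.713 with edgeR). Of the 7 tested genes in this list, 5 had a log2 fold change above 0.

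In the store-operated entry list, 4 of 8 tested genes had a log2 fold change above 0 and the median was 0.031. Saraf, which limits STIM1 activity, had a value of 0.24 (SE 0.18), Tmem203 one of -0.30 (SE 0.20) and Sppl3 one of 0.086 (SE 0.061). Tmem203 has a stretch of near-identical sequence in common with Ndor1 (229 bases at 99.6% identity), so the 2 genes can share reads. All 4 tested genes of the release list lay above 0, beside 48.9% of all tested genes, with a median of 0.077. Their log2 fold changes ran from 0.0026 to 0.31, the latter for Itpr2. Itpr3 was at 0.012 and Ryr1 was under 1 CPM in every library, and each of these took both signs across the alternatives. Itpr1, a member and so not in this list, was at -0.12. Among genes of calcium clearance and mitochondrial uptake, 5 of 11 lay above 0. Mcu, the pore of the mitochondrial uniporter, was at 60.0, 59.1 and 55.6 CPM in WT and 46.6, 54.9 and 42.8 CPM in KO. Each KO library lay below the WT range (log2 fold change -0.28, SE 0.10, unadjusted p = 0.0262, adjusted p = 0.713 with edgeR). Its inhibitory partner gene Mcub had a log2 fold change of 0.25 (SE 0.21), and the gatekeeper Micu2 one of -0.14 (SE 0.13).

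Between calcium and calcineurin stands calmodulin, for which Calm2 and Calm3 are described here. Their log2 fold changes were 0.11 (SE 0.11) and 0.076 (SE 0.079), and without WT replicate 1, the lowest library for both, they were -0.0031 and 0.0010. Each shares a stretch of near-identical sequence with at least 1 other annotated gene, so their counts are uncertain. Of the 8 genes for calmodulin and its kinases 6 lay above 0, with Camk2d at 0.10 (SE 0.072) and Camk1d at 0.073 (SE 0.063). Among the 7 tested calcineurin regulators and subunits 3 lay above 0. Rcan1, a calcineurin inhibitor that NFAT is known to induce, was at 9.28, 9.11 and 9.87 CPM in WT and 8.06, 8.37 and 9.24 CPM in KO, with 1 KO library inside the WT range (log2 fold change -0.14, SE 0.13, edgeR adjusted p = 0.848). Ppia, which encodes cyclophilin A, the receptor of the calcineurin inhibitor ciclosporin, had a value of -0.089 (SE 0.099) and shares sequence with 21 annotated genes.

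At the nuclear end of the pathway stand the kinases that return NFAT to the cytoplasm and the genes that NFAT induces. Dyrk1a, which primes NFAT for export, was at 201, 208 and 225 CPM in WT and 258, 231 and 240 CPM in KO, without overlap (log2 fold change 0.20, SE 0.074, unadjusted p = 0.0260, adjusted p = 0.713 with edgeR). Csnk1a1 had a log2 fold change of 0.12 (SE 0.073) and Dyrk2 one of -0.16 (SE 0.11). In the list of NFAT proteins and kinases, which also holds Nfat5, 6 of the 8 tested genes lay above 0. Of 12 genes that calcineurin or NFAT is known to induce, 10 were tested and 6 lay above 0, with a median of 0.043. Pdcd1, the gene of the inhibitory receptor PD-1, was at 7.29, 6.48 and 10.8 CPM in WT and 10.8, 9.89 and 15.1 CPM in KO, and only KO replicate 2 lay inside the WT range (log2 fold change 0.55, SE 0.24, unadjusted p = 0.0534, adjusted p = 0.736 with edgeR). In the authors' deposited table, from a fit named as paired, Pdcd1 has a log2 fold change of 0.56 and an adjusted p of 0.0400. Egr2 had a value of 0.24 (SE 0.17) and Cd40lg, at 0.484 to 1.39 CPM, one of 0.50 (SE 0.42).

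**Figure D5:**
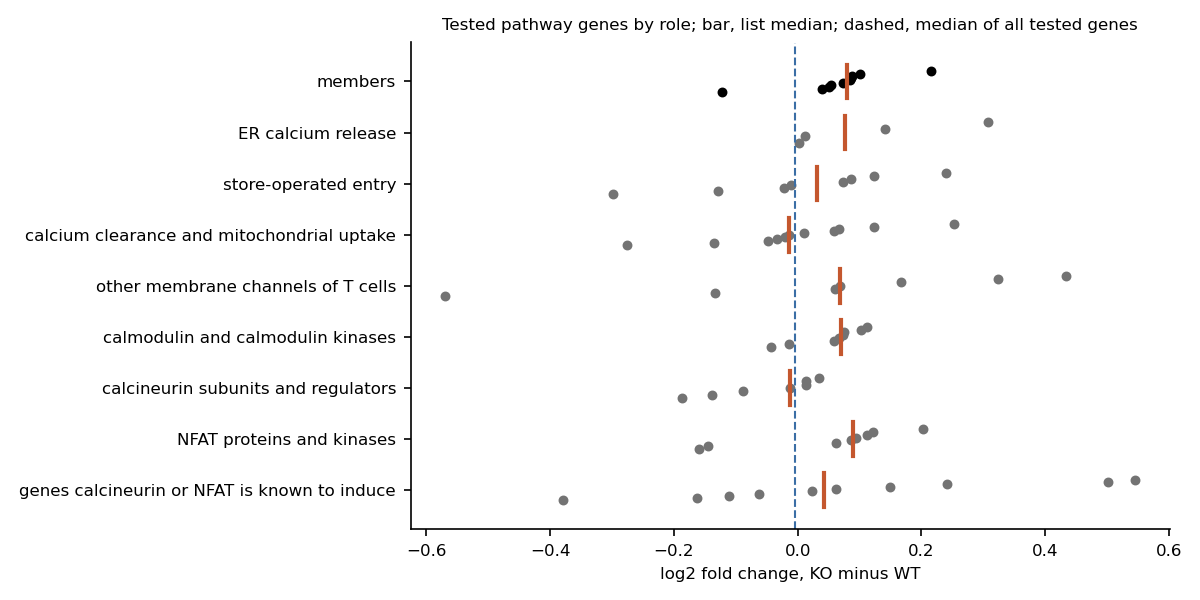
Log2 fold change (horizontal axis, KO minus WT) of each tested gene in the 10 members (black) and the 8 role lists (grey); orange bars are list medians and the dashed line is the median of all tested genes (-0.0040). Members lie between -0.12 and 0.22 with a median of 0.079, and the list medians between -0.014 and 0.090.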

How the data were processed

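Per the labels' protocols, RNA from sorted cells was made into Illumina TruSeq libraries. The submitters' processing notes name mm10 and the tools DESeq2, HTSeq, STAR 2.5.2 and Trimmomatic 0.33. Which counting mode, strand setting and annotation were used is not given in the sources used here. The authors deposited 1 file of raw gene counts per library and 1 table that joins them and adds gene lengths; the single and joined counts differed at 0 genes. The authors also deposited a normalized signal, counts divided by a size factor per library, which was not tested. Their deposited table holds log2 fold changes, standard errors, a Wald statistic (unit score), p-values and adjusted p-values from their own fit, named as paired; what was paired is not given.

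Rows that name no gene were left out of all totals and tests. Per library, 12.3% to 15.2% of reads had no feature, 0.653% to 0.701% were ambiguous and 22.6% to 23.9% aligned to several places. Of 43430 gene identifiers, 42464 matched a name. Replicates differed by more than sampling noise (chi-square per degree of freedom 17.3 to 56.3).

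Differences were tested with edgeR 4.0.16 in R 4.3.3 (TMM, filterByExpr, quasi-likelihood test on group, two-sided, Benjamini-Hochberg over 13039 genes, threshold 0.05). Standard errors are the log2 fold change over the square root of F. DESeq2 1.42.0, limma-voom (limma 3.58.1), other scalings, no filter, 2 blocks and leaving out each library were alternatives. Levels per kilobase used deposited lengths and, chosen after seeing the data, the longest coding transcript of GENCODE M21. BLAST 2.17.0 counted genes sharing at least 200 bases at 95% identity or more. The fits were also run on simulated data for KO against WT over 13039 genes. The genes given a true change were a subset drawn above a floor on mean level, and no outlying library was simulated. Among that subset edgeR found 37.3% of true 1.5-fold changes, 70.1% of 2-fold and 98.5% of 4-fold ones. Of its 145 calls, 8 were false. Recovery among genes below the floor was not measured.

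Members and lists were chosen with earlier results of these data known. The genes named were the 10 members, any other pathway gene called, the 3 with the lowest p in each of the 8 role lists, the members' paralogs, Calm2, Calm3 and Mettl14. Esrp2, Wdr92, Kdm2b, Trpv2 and Ndor1 were named outside this rule, after their values were seen. They overlap a member, complete a count or share sequence with a named gene. The rule as first written also names a gene that is not reported here.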

Additional observations from a re-analysis of the deposited data

How the results depend on the processing

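Members and other pathway genes called stayed at 0 under every alternative run. The main count of 5 genes called was 88 with DESeq2, 30 without a filter on low counts and 4 to 23 with 1 library left out (8 without WT replicate 1, 23 without WT replicate 3, 14 without KO replicate 2). With 1 library left out, 0 to 1 members and 0 to 10 other pathway genes had an unadjusted p under 0.05, and the members' median log2 fold change was 0.064 to 0.11. It was 0.057 with upper-quartile scaling and 0.052 with library totals, which moved the median of all genes from -0.0040 to -0.027 and -0.032. With 1 library left out, the log2 fold change took both signs for 4 members: Orai1 (-0.031 to 0.16), Itpr1 (-0.21 to 0.029), Ppp3ca (-0.063 to 0.15, and -0.039 without KO replicate 3) and Nfatc2 (-0.033 to 0.19). It did so too for Calm2 (-0.0031 to 0.21), Itpr3 (-0.071 to 0.074, and -0.032 without WT replicate 1), Micu2 (-0.25 to 0.0062), Orai2 (-0.11 to 0.15, and 0.089 without KO replicate 3), Orai3 (-0.0018 to 0.23) and Ryr1 (-0.28 to 0.78, and -0.023 without KO replicate 2). Itpr3 was at -0.011 with upper-quartile scaling and -0.016 with library totals, and Orai2 at 0.00097 without the filter. Apart from the construction of each alternative, the cause was not tested. Deviations of same-numbered libraries from their group means correlated at -0.24, 0.059 and 0.28. These values do not settle whether the numbers pair the libraries, and the authors' fit is named as paired. With a replicate block, 5 genes, 0 members and 0 other pathway genes were called. In that fit 1 member and 7 other pathway genes had an unadjusted p under 0.05, and the members' median was 0.081. A block setting replicate 3 apart also gave 5 calls. Of the members, Orai1 and Ppp3ca have the largest counting errors, 6.48% and 4.83%; Ryr1 (27.6%) and Cd40lg (19.7%) are limited more.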
